A study of Chlorocebus sabaeus with 10 samples.

Results

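The miR-30 family was examined in small RNA sequencing data from vervet monkey livers. The family was taken as 8 mature miRNAs, listed in the table under human names: the 5p products hsa-miR-30a-5p, hsa-miR-30b-5p, hsa-miR-30c-5p, hsa-miR-30d-5p and hsa-miR-30e-5p, and the 3p products hsa-miR-30a-3p, hsa-miR-30d-3p and hsa-miR-30e-3p. This list was chosen with earlier results of these data known. The prefix is left out from here on. These are 8 of the 2588 mature names in the count table, and all 8 were found there. The hairpins that give them also yield 3 further 3p products outside this list, miR-30b-3p, miR-30c-1-3p and miR-30c-2-3p, which were used only to complete the comparison of arms.

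The labels divide 10 animals into 5 fed a high fructose (HFr) diet and 5 fed chow. According to the paper, all were female and had been kept on chow before the study. The study asked which liver molecules, miRNAs among them, differ between HFr and chow animals. No comparison of diets was made, because the numbered library columns of the table carry no label that ties them to an animal or a diet. Every value below is therefore the authors' total of reads over all libraries. Columns that could not be matched to a sample were left out of every computation by choice, so neither a spread between libraries nor a test is given, and the intervals cover counting error only. The total weighs each library by its depth and need not stand for each animal.

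A miRNA is cut from a hairpin precursor, which has a 5p and a 3p arm. Usually 1 arm is loaded into the silencing complex as the guide, while the other, the passenger, is mostly degraded. Targets are chosen mainly by the seed, bases 2 to 8 of the guide. The 5p members of the miR-30 family share 1 seed and so overlap widely in their targets, whereas the 3p members carry another seed. In other systems the family is best known for restraint of the connective tissue growth factor CCN2, for control of autophagy through BECN1, and, for miR-30c-5p in mouse liver, for lowering the microsomal triglyceride transfer protein and lipoprotein secretion. In the human genome the 6 hairpins lie in 3 pairs: mir-30d with mir-30b, mir-30a with mir-30c-2, and mir-30e with mir-30c-1, the last pair within the gene NFYC. These pairings were not examined in the vervet genome.

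The count table held 2043164 reads when each name was counted through its most abundant row. miR-122-5p, the defining miRNA of hepatocytes, held 45.2% of them, and the 4 hepatocyte markers together (miR-122-5p, miR-192-5p, miR-194-5p and miR-148a-3p) held 49.7%, which was the check of the liver label. Markers of other cells were all detected. Those of stellate cells and fibroblasts (miR-143-3p, miR-145-5p and miR-199a-3p) held 3.17%, the endothelial miR-126-3p 0.996%, those of red blood cells (miR-451a and miR-486-5p) 0.531%, those of leukocytes (miR-142-3p and miR-223-3p) 0.0948% and those of biliary epithelium (miR-200b-3p and miR-429) 0.0530%. Within the stellate cell and fibroblast list, miR-145-5p had 280 reads, against 42313 for miR-143-3p and 22258 for miR-199a-3p. The miR-30 members are made in many cell types, and the part of each cell type in their reads was not tested.

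The miR-30 family was among the most abundant miRNA families of the vervet liver. Its 8 members held 83858 reads, or 4.10% of the pool (95% Wilson interval 4.08 to 4.13%). Without miR-122-5p in the denominator the share was 7.48%. miR-122-5p alone had 11 times as many reads as the family (exact binomial interval 10.9 to 11.1). When all names were grouped by their number, the 11 names numbered 30 came at position 5 of 346 groups with reads, after miR-122, let-7, miR-21 and miR-26, and ahead of miR-378 with 52916 reads. All 8 members had reads, against 26.3% of all names in the table. A minimum of 100 reads was reached by 7 of the 8, against 7.88% of all names, and the same 7, all but miR-30d-3p, reached 1000 reads, against 3.32% of all names. The 3 further 3p products of the hairpins, outside the list, had 68, 17 and 6 reads, so none of them reached 100. The list of 8 was chosen with earlier results of these data known, so these counts are not independent of that choice.

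Nearly all of the family's reads came from the 5p arm, which carries the shared seed. The 5 5p members held 81413 reads and the 3 3p members 2445, so that the 5p products exceeded the 3p products by 33.3-fold (interval 32.0 to 34.7). The most abundant member was miR-30d-5p, which is known in human melanoma as a repressor of the glycosyltransferase GALNT7. It had 26373 reads (exact Poisson interval 26056 to 26693), or 1.29% of the pool and 31.4% of the family. miR-30a-5p, known for repression of the autophagy gene BECN1 in human cells, followed with 23997 reads (23694 to 24303), 1.17% of the pool and 28.6% of the family. These were the leading pair, with 60.1% of the family's reads between them.

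miR-30c-5p, the member tied to lipoprotein secretion, had 18020 reads (17758 to 18285), which made up 0.882% of the pool and 21.5% of the family. It is given by a pair of hairpins, mir-30c-1 and mir-30c-2, and the table lists it at each of them. The mir-30c-1 row held 18020 reads and the mir-30c-2 row 17985, a difference of 35 reads or 0.194%. The mature product is identical from both hairpins, so the rows cannot say how many reads each hairpin gave. Adding the rows would count a read more than once wherever it is listed under both. The other members stood on a single row each.

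The remaining 5p members were less abundant. miR-30e-5p had 8078 reads (7903 to 8256), or 0.395% of the pool and 9.63% of the family. miR-30b-5p, which is known with miR-30d-5p as a regulator of GALNT7, had 4945 reads (4808 to 5085), or 0.242% of the pool and 5.90% of the family. From miR-30d-5p to miR-30b-5p the 5p members spanned 5.33-fold (interval 5.17 to 5.50).

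**Figure D1:**
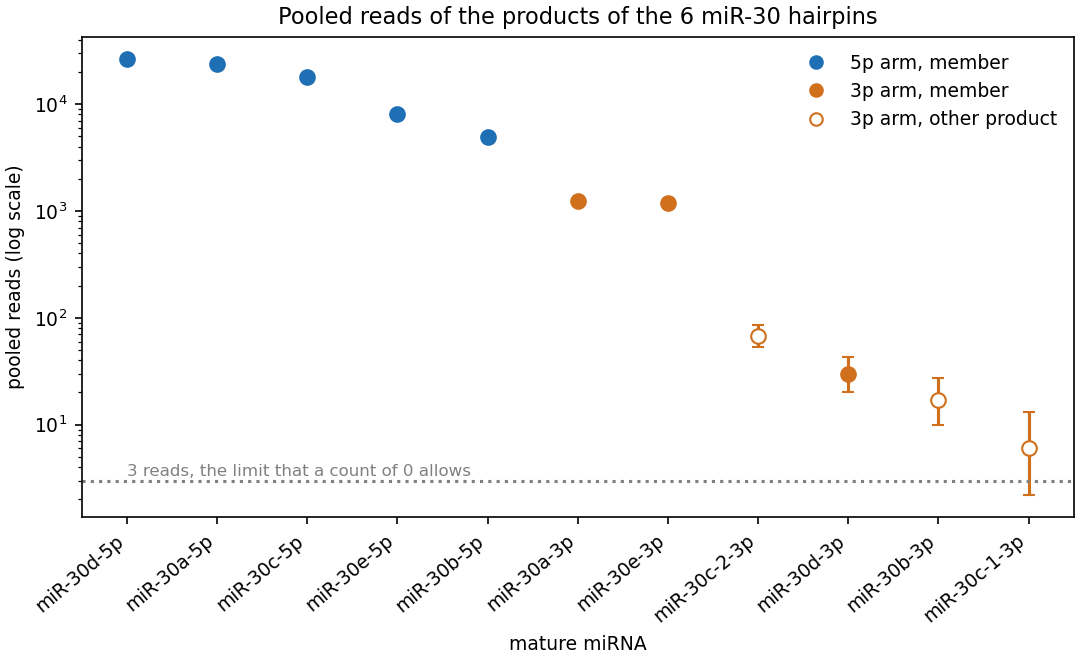
Pooled reads (log axis) of the 11 mature products of the miR-30 hairpins, in descending order, with exact 95% Poisson intervals (counting error only, hidden by the points where narrow). The 5 5p members lie between 4945 and 26373 reads, miR-30a-3p and miR-30e-3p lie at 1237 and 1178 reads, and the other 3p products lie at 68 reads or fewer.

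With 1 row per name, the order of the 5p members was resolved beyond counting error. Among the 10 pairs of 5p members, the interval of the ratio lay above 1 in all 10. The closest neighbours were miR-30d-5p and miR-30a-5p, whose reads stood 1.1 to 1 (interval 1.08 to 1.12). miR-30a-5p exceeded miR-30c-5p by 1.33-fold (1.31 to 1.36), and miR-30e-5p exceeded miR-30b-5p by 1.63-fold (1.58 to 1.69). The widest step between neighbours was that from miR-30c-5p to miR-30e-5p, at 2.23-fold (2.17 to 2.29). The place of miR-30c-5p rested on the choice of rows. With both of its rows added it had 36005 reads and led the family, and the ratios of miR-30d-5p and miR-30a-5p to it turned to 0.73 and 0.67. The spread between libraries was not computed, assignment of reads of 1 member to another was not tested, and adapter ligation differs between miRNAs. All ratios between miRNAs and between arms therefore describe reads and not molecules per cell. This matters most for small steps such as that between miR-30d-5p and miR-30a-5p.

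Of the 3p members, a pair had like abundance and 1 was far lower. miR-30a-3p had 1237 reads (1169 to 1308), or 0.0605% of the pool. miR-30e-3p, which is known to act on the NF-κB inhibitor NFKBIA in human glioma, had 1178 reads (1112 to 1247), or 0.0577%. The ratio of miR-30a-3p to miR-30e-3p was 1.05 with an interval from 0.969 to 1.14, so these counts did not separate them, although the 5p products of the same hairpins stood 2.97 to 1 (2.90 to 3.05). Reads of 1 member assigned to another would shift both ratios, and such assignment was not tested. miR-30d-3p had 30 reads (20.2 to 42.8), or 0.00147% of the pool. miR-30a-3p exceeded it by 41.2-fold (28.7 to 61.4) and miR-30e-3p by 39.3-fold (27.4 to 58.5).

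The 3p products outside the list had few reads. miR-30c-2-3p had 68 reads (52.8 to 86.2), miR-30b-3p had 17 (9.90 to 27.2) and miR-30c-1-3p had 6 (2.20 to 13.1). A count of 0 would have allowed up to 3 reads, so the last lies close to the limit of detection. The 3p products of the mir-30c hairpins have separate names, unlike their common 5p product. miR-30c-2-3p exceeded miR-30c-1-3p by 11.3-fold (4.95 to 32.0).

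All 6 miR-30 hairpins gave more reads from the 5p arm than from the 3p arm, but they differed widely in how much of the 3p arm was kept. For comparison, the 5p arm was the higher in 55.9% of the 179 hairpins of the table that have a name for each arm and reach 100 reads. The 3p arm made up 12.7% of the reads of mir-30e (Wilson interval 12.1 to 13.4%) and 4.90% of those of mir-30a (4.64 to 5.18%). In the other hairpins it was below 1%: 0.377% in mir-30c-2 (0.297 to 0.477%), 0.343% in mir-30b (0.214 to 0.548%), 0.114% in mir-30d (0.0796 to 0.162%) and 0.0333% in mir-30c-1 (0.0153 to 0.0726%). For the mir-30c hairpins these shares are too low if part of the miR-30c-5p reads came from the other hairpin. With the 3p reads of both hairpins set against miR-30c-5p counted once, the 5p share was 99.6%. Reads of 1 member assigned to another would also shift the shares of a hairpin, and such assignment was not tested.

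**Figure D2:**
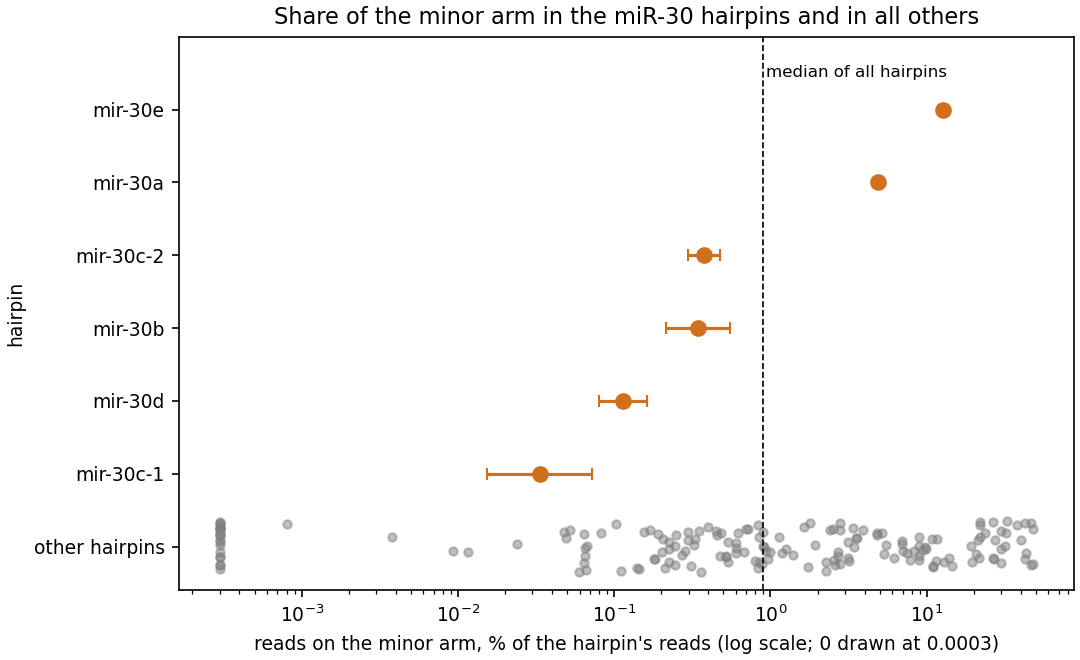
Share of reads on the minor arm of each hairpin (percent of the hairpin's reads, log axis, 0 drawn at 0.0003), for the 6 miR-30 hairpins with 95% Wilson intervals and for the other hairpins that have a name for each arm and reach 100 reads (grey, scattered vertically for legibility). mir-30e (12.7%) and mir-30a (4.90%) lie above the median of all 179 hairpins (0.893%), and the other 4 lie below it. For mir-30c-1 and mir-30c-2 all miR-30c-5p reads listed at the hairpin are counted as its own.

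The 3p share was graded over the hairpins, as far as reads were assigned to the right member, which was not tested. The odds of a 3p read were 2.83 times as high in mir-30e as in mir-30a (conditional exact interval 2.60 to 3.08) and 45.3 times as high in mir-30a as in mir-30d (31.6 to 67.5). For mir-30b against mir-30d they were 3.02 times as high (1.56 to 5.66). mir-30c-2 and mir-30b were not separated, with an odds ratio of 1.1 and an interval from 0.638 to 2.0. This ratio counts all miR-30c-5p reads listed at mir-30c-2 as its own. It is too low if part of them came from mir-30c-1, so the comparison is not settled. Over the family, mir-30a and mir-30e supplied 95.2% of all 3p reads (2415 of 2536, interval 94.3 to 96.0%) but 39.4% of all 5p reads (39.1 to 39.7%).

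Set beside the other hairpins of the liver, mir-30e and mir-30a kept more of their minor arm than most. By the reads as listed, the rest of the family kept less. The median minor arm held 0.893% of a hairpin's reads (quartiles 0.182 and 8.02%). mir-30e stood at rank 32 of 179 from the highest share and mir-30a at rank 55, while mir-30c-2, mir-30b, mir-30d and mir-30c-1 stood at ranks 113, 116, 140 and 154. A minor arm of 1% or more was found in 2 of the 6 miR-30 hairpins, against 46.9% of all hairpins, and 1 of 10% or more in 1 of the 6, against 20.7%. These counts lie near the background and do not set the family apart as a whole. By number of reads, miR-30a-3p and miR-30e-3p were at ranks 5 and 6 among 172 different minor arm products, whose median was 21.5 reads. Hairpins of other families that give the same mature product share its reads and are not independent.

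Hairpins that lie together in the human genome differed in the level of some of their products. miR-30d-5p exceeded its neighbour miR-30b-5p by 5.33-fold, while their 3p products were not separated, with 30 and 17 reads and a ratio of 1.76 (interval 0.942 to 3.41). For the other pairs, the 5p comparison could not be made because miR-30c-5p comes from both. On the 3p side miR-30a-3p exceeded miR-30c-2-3p by 18.2-fold (14.2 to 23.6), and miR-30e-3p exceeded miR-30c-1-3p by 196.3-fold (89.9 to 536.1), a ratio that rests on the 6 reads of the latter. Whether hairpins of a pair are transcribed together in vervet liver was not tested.

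In the order of all 680 detected names the 5p members stood high and close to miRNAs of quite different origin. miR-30d-5p was at rank 14, next to miR-16-5p (26518 reads), from which it was not separated (ratio of the larger to the smaller 1.01, interval 0.988 to 1.02). miR-30a-5p followed directly at rank 15, ahead of the 22258 reads listed for each of miR-199b-3p and miR-199a-3p, by 1.08-fold (1.06 to 1.1). miR-30c-5p at rank 20 lay below the endothelial miR-126-3p (20344 reads) and beside the hepatocyte miRNA miR-192-5p (17980 reads), with which its ratio was 1.0 (0.982 to 1.02). miR-30e-5p at rank 28 lay beside miR-24-3p (8151 reads, ratio 1.01, interval 0.978 to 1.04) and above miR-92a-3p (6940 reads). miR-30b-5p at rank 40 lay between miR-20a-5p (5282 reads) and miR-374a-5p (4481 reads), and both intervals excluded 1.

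The 3p members were placed less firmly. miR-30a-3p at rank 81 lay between the leukocyte miRNA miR-142-3p (1242 reads) and miR-424-5p (1219 reads), and miR-30e-3p at rank 83, tied with 1 other name, lay between miR-424-5p and miR-574-5p (1111 reads). None of these neighbours was separated from the member beside it. Of the 277 3p names with reads, they were at ranks 28 and 29. miR-30d-3p was at rank 297, tied with 4 other names at 30 reads, between miR-181c-5p and miR-323a-3p (32 reads each) and miR-502-3p (29 reads). A like number of pooled reads does not show that a pair of miRNAs vary together, since the pool holds 1 value for each.

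**Figure D3:**
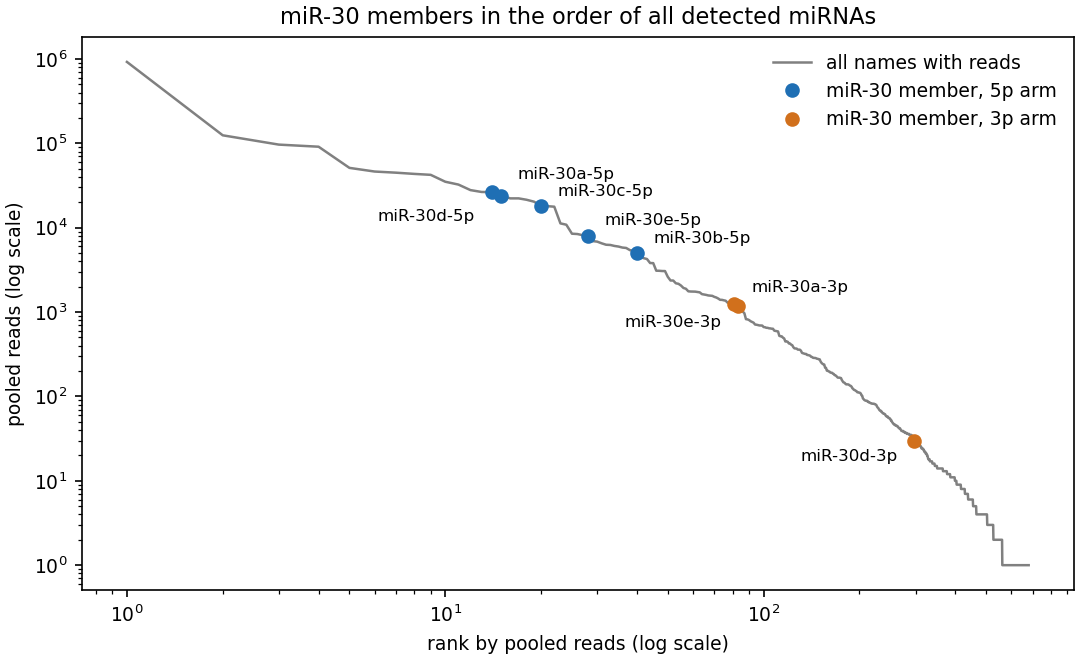
Pooled reads against rank for all 680 names with reads (grey line, both axes log), with the 8 miR-30 members marked by arm. The 5 5p members lie at ranks 14 to 40, miR-30a-3p and miR-30e-3p at ranks 81 and 83, and miR-30d-3p at rank 297.

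Compared with other families, the miR-30 family was close in total to miR-26, well below let-7 and above miR-29. The let-7 family (9 members with miR-98-5p, 328943 reads) exceeded it by 3.92-fold (interval 3.89 to 3.95), and the miR-26 family (miR-26a-5p and miR-26b-5p, 88290 reads) by 1.05-fold (1.04 to 1.06). It exceeded the miR-29 family (miR-29a-3p, miR-29b-3p and miR-29c-3p, 13618 reads), known for repression of collagen genes, by 6.16-fold (6.05 to 6.27). The miR-30 total holds members of both arms, while each of the other families was counted by a single arm. The 5p members of miR-30 alone stood at 0.247 of let-7 (0.246 to 0.249), 0.922 of miR-26 (0.913 to 0.931) and 5.98 times miR-29 (5.87 to 6.09). With the rows of all precursors summed, the family held 3.81% of the pool, let-7 exceeded it by 6.62-fold (6.57 to 6.66) and miR-26 by 1.29-fold (1.28 to 1.30). Reads were spread over more members than in miR-29, where miR-29a-3p held 79.7%. The effective number of members, the number of equally abundant members that would give the same concentration of reads (the inverse Simpson index), was 4.16 for the 8 miR-30 members, 3.91 for let-7, 2.0 for miR-26 and 1.5 for miR-29. Over the 5p members of miR-30 alone it was 3.93 of 5. How many reads of 1 member were assigned to another was not tested.

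**Figure D4:**
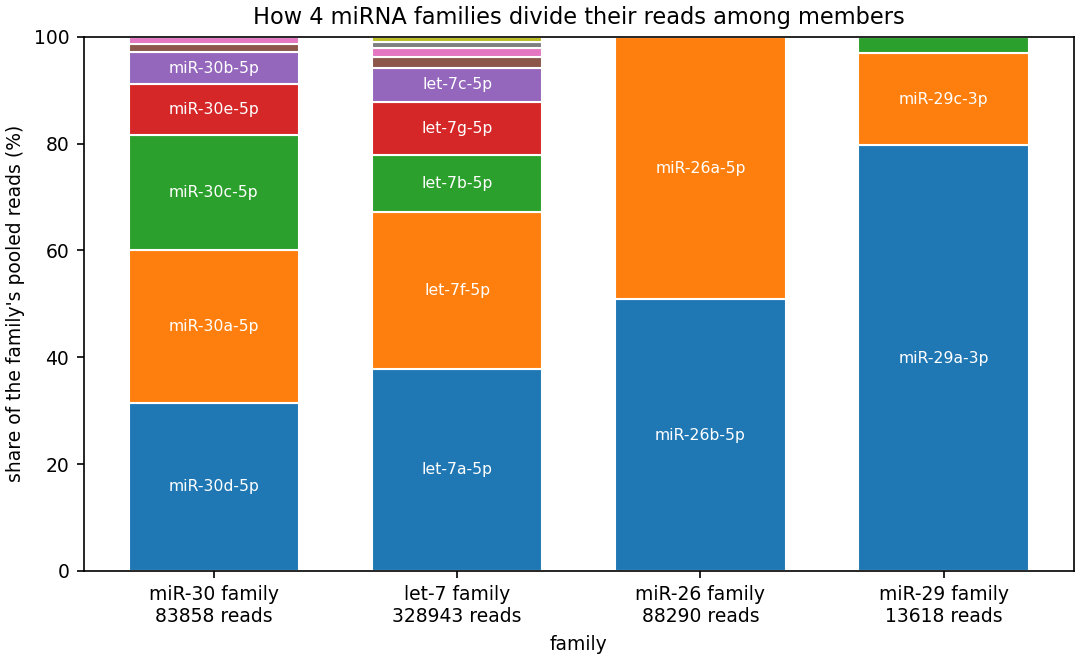
Share of each family's pooled reads (percent) held by each member, for the miR-30, let-7, miR-26 and miR-29 families, stacked from the most abundant member at the bottom, with members under 3.5% left without a name. In miR-30 the first 3 members hold 31.4, 28.6 and 21.5%, while miR-29a-3p holds 79.7% of miR-29.

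The families also differed in their minor arms. The minor arm of the 12 let-7 and miR-98 hairpins had a median share of 0.0839% and reached 8.25% in let-7d, which alone of these hairpins reached 1%. In the 3 miR-26 hairpins the highest share was 0.180%. In the 4 miR-29 hairpins the median was 6.39% and the highest share 10.8%, in mir-29b-1. The miR-30 hairpins had a median of 0.360%, between those of let-7 and miR-29, and ran from 0.0333% in mir-30c-1 to 12.7% in mir-30e. These shares count the reads of a common mature product in full at each of its hairpins.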

How the data were processed

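Liver RNA was made into small RNA libraries (Illumina TruSeq). Reads were quantified with miRDeep2, as the methods of the study state, and cutadapt 1.10 and Bowtie appear in the submitters' processing notes. The miRNA release and the genome build were not given in the sources used here. All names are human, so reads of a vervet miRNA with a changed base may be missed. The authors deposited raw read counts in 1 table of 2948 rows, each a mature miRNA at a precursor. The authors' total count over all libraries was used. A further 20 library columns (raw and normalized values of 10 numbered libraries) match no sample label and were not analysed, so the depth of each library is not given and no diet test was run.

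Each name was counted through its row with the highest total (2043164 reads in all, against 2669761 over all rows). Shares have 95% Wilson intervals, counts exact Poisson intervals, ratios of 2 counts exact binomial intervals, and odds ratios conditional exact intervals. Reads carry no molecular identifiers, so intervals cover counting error only. Tested on simulated data, 94.7% of Wilson intervals over 403 names and 95.6% of ratio intervals held the true value. The simulated reads were drawn from the observed shares with counting error alone. They held no spread between libraries, so only the computation of the intervals was checked. Named miRNAs were the members, the other products of their hairpins, the names directly above and below each member by reads, 3 families for comparison and cell type markers. The members and lists were chosen with earlier results of these data known. The grouping of names by number, the ranking of minor arms, the odds ratios and the effective number of members were added after the values were seen. No positions are given, since 0 miRNA genes are annotated in the vervet gene table used here (mChlSab1.0.hap1). Alternatives are described in the closing section. Python 3.11.15 with numpy 2.4.6, scipy 1.17.1, pandas 2.3.3 and matplotlib 3.10.9 was used.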

Additional observations from a re-analysis of the deposited data

How the results depend on the processing

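Adding all precursor rows doubled miR-30c-5p in effect and left the reads of the other members as they were. It reversed the order of miR-30c-5p against miR-30d-5p (ratio of miR-30d-5p to miR-30c-5p 0.73) and against miR-30a-5p (0.67), and raised its ratio to miR-30e-5p to 4.46 and to miR-30b-5p to 7.28. The other 9 ratios between members kept their values. The share of the family in the pool became 3.81%. The ratios of other families to it, an alternative chosen after seeing the data, became 6.62 for let-7, 1.29 for miR-26 and 0.138 for miR-29. Within the family the share of miR-30c-5p became 35.4%, that of miR-30d-5p 25.9%, miR-30a-5p 23.6%, miR-30e-5p 7.93%, miR-30b-5p 4.86%, miR-30a-3p 1.21% and miR-30e-3p 1.16%. The ranks became 13 for miR-30c-5p, 18 for miR-30d-5p, 19 for miR-30a-5p, 30 for miR-30e-5p and 85 for miR-30e-3p. Those of miR-30a-3p and miR-30d-3p became 83 and 314, and miR-30b-5p stayed at 40. Leaving miR-122-5p out of the denominator gave a family share of 7.48%. Counting names with identical reads at identical precursors once, which removed 14 names, gave 4.15% and ranks of 19 for miR-30c-5p and 39 for miR-30b-5p. The ranks of miR-30e-5p, miR-30a-3p, miR-30e-3p and miR-30d-3p became 27, 80, 82 and 294, and those of miR-30d-5p and miR-30a-5p did not change. With the 3p reads of both mir-30c hairpins summed, the 5p share of mir-30c-1 was 99.6%. Each shift comes from the rows or names that the alternative counts.

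Among the 90 hairpins with 1000 reads or more, the 5p arm was the higher in 67.8%, a minor arm of 1% or more was found in 38.9% and 1 of 10% or more in 11.1%. A minimum of 10 reads in place of 100 left 403 names in place of 204. No paired analysis was possible because no library of the table could be tied to an animal. Leaving out each library was not run, since columns matched to no sample were not used, so how far 1 library decides a value is not known. Depth limits the 3p products with few reads: the interval of miR-30d-3p runs from 20.2 to 42.8 reads, and that of miR-30c-1-3p from 2.20 to 13.1 reads.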
